A study of Mus musculus with 8 samples.

Results

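Expression of 6 Ly6 family genes, Ly6a, Ly6c1, Ly6c2, Ly6d, Ly6e and Ly6k, was followed by single-cell RNA-seq in the immune cells of B16-OVA tumors, a mouse melanoma line (B16-F10) that carries chicken ovalbumin. The genes were chosen by symbol, and each symbol matched 1 of the 27998 genes of the deposited count matrix. Ly6 proteins are small, cysteine-rich proteins that are held on the outer cell membrane by a lipid (GPI) anchor. Their genes lie side by side on mouse chromosome 15, and several of them are known to be induced by interferons. Antibodies to these proteins are used to sort cells. Ly6a encodes Sca-1, a marker of hematopoietic stem cells and of activated lymphocytes, the Ly6C antigen of Ly6c1 and Ly6c2 marks inflammatory monocytes and memory CD8+ T cells, and Ly6d marks early B lineage cells. Ly6e is known as an interferon-induced gene of broad expression, and Ly6k mainly from the testis.

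CD45+ cells were sorted with enrichment for CD8+ tumor-infiltrating lymphocytes (TILs), from the pooled tumors of 5 mice per condition, and the 10x Genomics 5′ assay was used to sequence them. All tumors grew in female C57BL/6 mice, bought at 6 weeks of age and not lymphodepleted. Adoptive cell transfer (ACT) used OT1 cells, CD8+ T cells with a receptor for an ovalbumin peptide, which were either untransduced or engineered with retroviral vectors. PD1d is the ectodomain of PD-1 fused to the Fc part of human IgG4, IL-2v is a variant of interleukin-2, and IL-33 is an alarmin cytokine. A library each came from day 5 and day 12 tumors after untransduced ACT, from day 12 tumors after transfer of PD1d/IL-2v cells or of PD1d/IL-33 cells, and from tumors of days 5, 12 and 26 after a mix of both (PD1d/IL-2v/IL-33 ACT), and the last of the 8 came from non-treated tumors labelled day 5. Each condition and day was thus 1 library, and differences between libraries have no replicate check. Transferred OT1 cells and the host's own CD8+ T cells cannot be told apart in these data.

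The matrix holds 98669511 UMIs (unique molecular identifiers, each 1 captured RNA molecule) in 15700 barcodes, and 12827 cells passed a filter on depth and on the shares of ribosomal and mitochondrial genes. Cells were gated by raw UMIs of marker genes, which gave 4904 CD8+ T, 1163 CD4+ T, 2357 NK, 1563 myeloid and 132 B cells, while 2699 passing cells (21.04%) fell in no gate. The CD8+ T gate held 42 to 2231 cells per library, fewest in day 12 untransduced ACT (42) and in non-treated tumors (77). Several genes that the gates did not use were high in the gates they mark, while others did not separate the gates. Levels are given as CPM, the UMIs of a gene per 1000000 UMIs of the gate. Thy1 stood at 1155 CPM in CD8+ T and at 21.04 CPM in myeloid cells, Klra8 at 401.0 CPM in NK and 4.94 CPM in CD8+ T, Lyz2 at 7996 CPM in myeloid and 9.562 CPM in CD8+ T, and Cd22 at 218.6 CPM in B and 2.166 CPM in CD8+ T. Tyrobp, listed for myeloid cells, stood at 3046 CPM in them and 2743 CPM in NK cells. Lck, listed for T cells, was at 594.8 CPM in CD8+ T and 327.0 CPM in NK cells. Ly86, listed for B cells, was at 322.7 CPM in them and 408.1 CPM in myeloid cells. The designed gate for plasmacytoid dendritic cells (pDCs) held 9 cells, as other cells with pDC markers also carried Cd68 or Ms4a6c. A wider gate of 37 cells, set after the data were seen, is described without a test. In the deposited matrix 143 barcode sequences occurred in more than 1 library, which touches 286 cells (1.822%).

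Ly6c1 and Ly6c2 are shown first, because their coding sequences are nearly the same while their counts were far apart. Over the 396 coding bases 387 were identical (97.73%). The first 180 coding bases, from the transcripts of GENCODE M1, differ at 6 positions, which are in capitals.
Ly6c1: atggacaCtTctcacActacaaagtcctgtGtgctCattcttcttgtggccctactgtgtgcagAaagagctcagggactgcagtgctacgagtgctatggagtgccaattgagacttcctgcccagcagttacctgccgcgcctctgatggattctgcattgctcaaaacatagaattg
Ly6c2: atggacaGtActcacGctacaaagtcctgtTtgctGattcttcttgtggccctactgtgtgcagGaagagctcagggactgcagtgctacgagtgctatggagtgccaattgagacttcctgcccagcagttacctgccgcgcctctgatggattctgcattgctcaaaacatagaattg

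Reads of 91 bases can fall where both genes are the same. Of the 91-base windows of the Ly6c1 transcript, 132 of 750 (17.6%) were also in Ly6c2, and 132 of 706 windows of Ly6c2 (18.7%) were in Ly6c1, so the authors' counting could split or drop reads of this pair. The windows were counted evenly along each transcript. Where the reads of the 5′ assay fell was not known, so these are not shares of reads. No window was shared with Ly6a, Ly6e or Ly6i. Ly6a was 81.98% identical to Ly6c1 and 81.73% to Ly6c2 over the aligned coding sequence, and Ly6e 50.46% to Ly6c1.

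The stretches before the start were less alike in the alignment made. Over the 250 bases before the start in RefSeq (GRCm38.p6, minus strand), 164 of 284 aligned columns were identical (57.75%). Of these columns 68 were gaps, which count as differences, while the coding alignment of this pair had 0. Gaps at the ends of the windows were not counted apart. Below is the part of each window that lies outside the annotated gene, at chr15:75048921-75049087 for Ly6c1 and chr15:75112067-75112221 for Ly6c2, with the motifs found in capitals.
Ly6c1: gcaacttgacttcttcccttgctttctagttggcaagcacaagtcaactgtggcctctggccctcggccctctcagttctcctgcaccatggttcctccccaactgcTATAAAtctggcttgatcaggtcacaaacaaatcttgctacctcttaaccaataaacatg
Ly6c2: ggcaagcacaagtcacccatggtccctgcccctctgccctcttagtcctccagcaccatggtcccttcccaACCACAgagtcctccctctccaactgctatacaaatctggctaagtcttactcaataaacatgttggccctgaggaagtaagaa
TATAAA was present 1 time in the Ly6c1 window and absent from that of Ly6c2, and it was in 12.37% of the 32851 windows of 250 bases before RefSeq genes, on either strand. TGTGGT, part of the Runx motif, was present 1 time in the Ly6c2 window, on the opposite strand, and absent from that of Ly6c1, with 14.05% of all windows holding it. The letters of the interferon motifs GAS (TTCNNNGAA, 7.02% of windows) and ISRE (2.977%), of the GC box (GGGCGG, 32.74%) and of the E box (CACGTG, 6.021%) were in neither window.

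All 6 genes lie within chr15 of GRCm38, Ly6d at chr15:74762056-74763567, Ly6k at chr15:74796874-74799968, Ly6e at chr15:74955025-74959904, Ly6a at chr15:74994877-74998031, Ly6c1 at chr15:75044018-75048920 and Ly6c2 at chr15:75108161-75112066. Ly6e gave 128688 UMIs in the passing cells and was found in 93.32% of them. Ly6c2 gave 64467 UMIs (42.85% of cells) and Ly6a 62828 UMIs (55.83%). The other members were rare, with 2432 UMIs of Ly6d (1.528% of cells), 405 of Ly6c1 (2.651%) and 149 of Ly6k (0.764%). The CD8+ T gate held 40269 UMIs of Ly6e, 35819 of Ly6c2, 20875 of Ly6a, 195 of Ly6c1, 83 of Ly6k and 6 of Ly6d. In UMIs, 0.5444 of Ly6c1 were counted per 100 of Ly6c2 in CD8+ T cells, 0.513 in myeloid cells and 5.616 in CD4+ T cells.

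Each abundant member had its own order of cell types. Among the CD8+ T, CD4+ T, NK and myeloid gates, Ly6a stood highest in CD4+ T cells, where the 8 libraries ranged from 1213 to 2690 CPM (median 1706), followed by myeloid cells (189.5 to 923.9, median 609.0) and CD8+ T cells (326.0 to 677.6, median 485.0), and it was low in NK cells (16.26 to 94.53, median 30.95). The CD4+ T and NK ranges were clear of all others, while the ranges of myeloid and CD8+ T cells overlapped. After each cell was thinned to 2000 UMIs, Ly6a was detected in 85.3% of CD4+ T cells, 48.16% of CD8+ T cells, 41.2% of myeloid cells and 3.734% of NK cells. At their own depth the shares were 93.47%, 69.51%, 60.08% and 8.91%, with library medians of 5191 to 8178 UMIs per CD8+ T cell, 4071.5 to 6697 per NK cell and 5775.5 to 9733 per myeloid cell. The lowest share of a gate, here that of NK cells, was taken as the background to which free RNA can add.

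**Figure D1:**
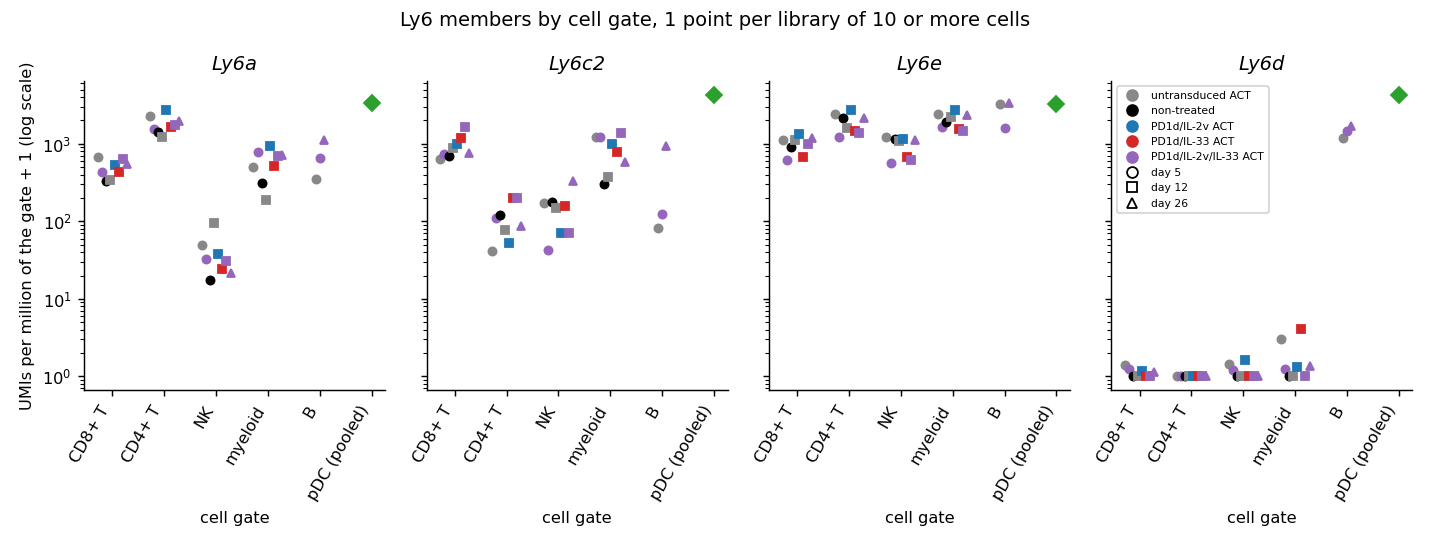
Level of Ly6a, Ly6c2, Ly6e and Ly6d (CPM of the gate plus 1, log scale) in each cell gate, with 1 point per library of 10 or more cells, colored by treatment and shaped by day, and a green diamond for the 37 pooled pDCs. Ly6a is highest in CD4+ T cells and pDCs and lowest in NK cells, Ly6c2 is high in CD8+ T and myeloid cells, Ly6e is high in every gate, and Ly6d is high only in B cells and pDCs of the gates drawn.

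For Ly6c2 the order was another one. Myeloid cells (299.2 to 1395 CPM, median 887.0) and CD8+ T cells (630.9 to 1633, median 829.0) overlapped, and both were above NK cells (41.81 to 325.3, median 151.8) and CD4+ T cells (39.98 to 199.1, median 98.78) in the medians, with the lowest myeloid library (non-treated tumors) below the highest NK library (day 26). After thinning, Ly6c2 was detected in 52.16% of CD8+ T, 47.79% of myeloid, 9.286% of CD4+ T and 6.788% of NK cells, and at their own depth in 64.5%, 62.83%, 12.55% and 8.952%. Ly6e was never low. It ranged from 1464 to 2710 CPM (median 2074) in myeloid, 1233 to 2703 (median 1876) in CD4+ T, 558.4 to 1235 (median 1108) in NK and 616.9 to 1317 (median 1044) in CD8+ T cells, so that myeloid and CD4+ T cells overlapped, as did NK and CD8+ T cells, and the lowest CD4+ T library (1233) lay below the highest CD8+ T library (1317).

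These differences were tested across libraries with edgeR's quasi-likelihood test on UMIs summed per library and gate, with the library as a block and Benjamini-Hochberg adjusted p-values over 10049 genes (SE after each log2 fold change). Between CD4+ and CD8+ T cells 23.1% of all genes passed the threshold of 0.05, and 3 of the 5 members tested did. Ly6a was higher in CD4+ T cells (log2 fold change 1.73 ± 0.21, edgeR adjusted p = 6.34e-08), as was Ly6e (0.75 ± 0.10, adjusted p = 2.01e-07), and Ly6c2 was lower (−3.37 ± 0.41, adjusted p = 9.42e-08). Each direction held in 8 of 8 libraries. Ly6k was too low to enter the fit.

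NK cells differed from CD8+ T cells in 35.6% of genes. Ly6a (−3.95 ± 0.25, edgeR adjusted p = 1.52e-14) and Ly6c2 (−2.96 ± 0.40, adjusted p = 3.16e-07) were lower in NK cells in 8 of 8 libraries, and Ly6c1 was lower as well (adjusted p = 2.61e-06), with 6 UMIs in NK against 195 in CD8+ T cells, a 12.24-fold ratio of CPM (exact 95% interval 5.525 to 33.77). Ly6e did not pass (−0.20 ± 0.10, adjusted p = 0.0996). Against CD4+ T cells, where 33.5% of genes passed, NK cells were lower in Ly6a (−5.68 ± 0.26, adjusted p = 3.47e-18), Ly6e (−0.96 ± 0.10, adjusted p = 5.70e-10) and Ly6c1 (adjusted p = 3.27e-05), and Ly6c2 did not pass (0.41 ± 0.42, adjusted p = 0.504). The interferon-induced genes that were listed beside the members gave 12 of 20 lower and 0 higher in NK than in CD8+ T cells (median −0.85, against −0.03 over all genes), among them Bst2 and Isg15.

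Myeloid cells differed from CD8+ T cells in 68.5% of genes, so that a call there is the rule. Ly6e was higher (1.20 ± 0.10, edgeR adjusted p = 4.18e-13), while Ly6a (0.38 ± 0.20, adjusted p = 0.0982), Ly6c2 (0.11 ± 0.35, adjusted p = 0.801) and Ly6c1 (0.25 ± 0.33, adjusted p = 0.526) did not pass. Ly6d was called on 9 UMIs against 6, and the call was lost by DESeq2 (adjusted p = 0.0542) and without day 5 untransduced ACT (adjusted p = 0.187), PD1d/IL-33 ACT (adjusted p = 0.0523) or the day 26 library (adjusted p = 0.0765). Ly6a passed without the untransduced library of day 5 (adjusted p = 0.0348) or of day 12 (adjusted p = 0.0117). Of the interferon-induced genes 19 of 20 were higher in myeloid cells (median 1.49, against −0.07 over all genes). Against NK cells, where 66.2% of genes passed, myeloid cells were higher in Ly6a (4.33 ± 0.26, adjusted p = 2.11e-16), Ly6c2 (3.07 ± 0.40, adjusted p = 4.57e-08), Ly6e (1.40 ± 0.10, adjusted p = 1.22e-14) and Ly6c1 (adjusted p = 4.03e-07).

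Ly6d separated B cells and pDCs from the rest. The 3 libraries with 10 or more B cells had 1174 CPM (untransduced ACT, day 5), 1471 (PD1d/IL-2v/IL-33 ACT, day 5) and 1704 (PD1d/IL-2v/IL-33 ACT, day 26), and the 5 smaller ones 1488 to 4804. CD8+ T cells stayed at or below 0.4119 CPM in every library, and CD4+ T cells had 0 UMIs in 1163 cells, of which 3 cells would be 0.258%. Over the 3 libraries, 648 UMIs in B cells stood against 5 in CD8+ T cells, a 6465-fold ratio of CPM (exact 95% interval 2756 to 19980, edgeR adjusted p = 1.76e-16), in a contrast where 19.3% of genes passed (793 higher and 1147 lower in B cells, or 1139 and 726 by DESeq2). After thinning, 79.55% of B cells and 0.04078% of CD8+ T cells carried Ly6d. Ly6e was also higher in B than in CD8+ T cells (1.29 ± 0.13, adjusted p = 2.44e-09), and Ly6a did not pass (0.19 ± 0.31, adjusted p = 0.767).

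Ly6c2 in B cells depended on the library. It stood at 82.05 CPM and 124.8 CPM in the untransduced and the PD1d/IL-2v/IL-33 library of day 5, below their CD8+ T cells, and at 944.0 CPM in 16 B cells of day 26, above them. The fitted difference from CD8+ T cells was −1.76 ± 0.63 (edgeR adjusted p = 0.0450), and it failed without day 5 untransduced ACT (adjusted p = 0.267) or day 5 PD1d/IL-2v/IL-33 ACT (adjusted p = 0.225), and also without day 12 untransduced ACT (adjusted p = 0.0608), PD1d/IL-2v ACT (adjusted p = 0.0566) or PD1d/IL-33 ACT (adjusted p = 0.0542), whose 2 to 4 B cells were too few to be summed.

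The 37 cells of the wider pDC gate were high in 4 members at once. Summed over libraries they held Ly6d at 4237 CPM, Ly6c2 at 4223, Ly6a at 3329 and Ly6e at 3293, while Ly6c1 was at 21.53. A few cells weigh heavily in these sums. In PD1d/IL-2v ACT 1 cell held 353 of the 1177 UMIs of Ly6c2. In day 5 untransduced ACT 4 cells held 333 of the 1181 UMIs of Ly6d. Detection of several members in the same pDC was not counted. Genes known from pDCs were high in the 37 cells, with Bst2 at 3756 CPM, Irf8 at 3146 and Tcf4 at 1141. However, 16 of the 37 cells carried UMIs of Cdh5 or Kdr, genes of endothelial cells, which also express Ly6a and Ly6c1. Pecam1, also listed as endothelial, stood at 93.28 CPM in the 37 cells, 93.69 in B cells, 61.35 in NK cells and 19.71 in CD8+ T cells. Whether these cells are endothelial was not tested. In the 21 cells without Cdh5 or Kdr, Ly6d stood at 4283 CPM, Ly6c2 at 2865, Ly6a at 2465, Ly6e at 3299 and Ly6c1 at 13.77. Contrasts of pDCs with other gates could not be fitted.

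Genes with the most similar pattern were sought over the 34 library and gate sums of 20 or more cells, among 7399 genes, as a description with no test, since sums of 1 library share that library and its depth. Ly6a was most like Ifi27l2a (Pearson r = 0.921), an interferon-induced gene, then Tank (0.8778) and Igtp (0.8747). Ly6d was most like Cd79a (0.9963) and Cd79b (0.9608), which encode the signaling chains of the B cell receptor, and Cd79a was a marker of the B gate. Only 2 of the 34 sums were of B cells, and both values rest mainly on these. Ly6e had Snx2 (0.8565), Cytip (0.8481) and Bcl3 (0.8331), and Ly6c2 had lower values, with 5730508B09Rik at 0.7466 and Smpdl3b at 0.6994.

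Within the CD8+ T gate the treatments were compared at matched days, asking how engineering of the transferred cells changed the surface genes of CD8+ TILs. Ly6c2 stood at 630.9 CPM in day 5 untransduced ACT (95% exact Poisson interval 608.7 to 653.6), 728.1 in day 5 PD1d/IL-2v/IL-33 ACT, 689.9 in non-treated tumors, 893.1 in day 12 untransduced ACT (785.0 to 1012), 1002 in PD1d/IL-2v ACT, 1171 in PD1d/IL-33 ACT and 1633 in day 12 PD1d/IL-2v/IL-33 ACT (1602 to 1665), and at 764.8 in the last treatment at day 26. All 4 libraries of day 12 lay above those of days 5 and 26. The share of all genes with this order was not counted, so it does not set Ly6c2 apart. None of the day 12 libraries shares a run identifier, taken from the names of the authors' Cell Ranger outputs, with a library of another day. The untransduced library of day 12 holds 42 CD8+ T cells. After thinning, Ly6c2 was detected in 76.87% of the CD8+ T cells of day 12 PD1d/IL-2v/IL-33 ACT and in 32.47% to 56.98% of those of the other libraries. These intervals cover counting error only, not the difference between mice.

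Ly6e in CD8+ T cells stood at 1122 CPM in day 5 untransduced ACT, 616.9 in day 5 PD1d/IL-2v/IL-33 ACT, 917.6 in non-treated tumors, 1104 in day 12 untransduced ACT, 1317 in PD1d/IL-2v ACT, 679.7 in PD1d/IL-33 ACT, and 984.2 and 1171 in the mix at days 12 and 26. Its lowest levels were thus in day 5 cells of the mix and in PD1d/IL-33 ACT. Ly6a, in the same order of libraries, stood at 677.6, 436.1, 326.0, 341.3, 533.9, 428.0, 630.7 and 542.2 CPM. It was highest in day 5 untransduced ACT and lowest in the smallest libraries, non-treated tumors and day 12 untransduced ACT.

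**Figure D2:**
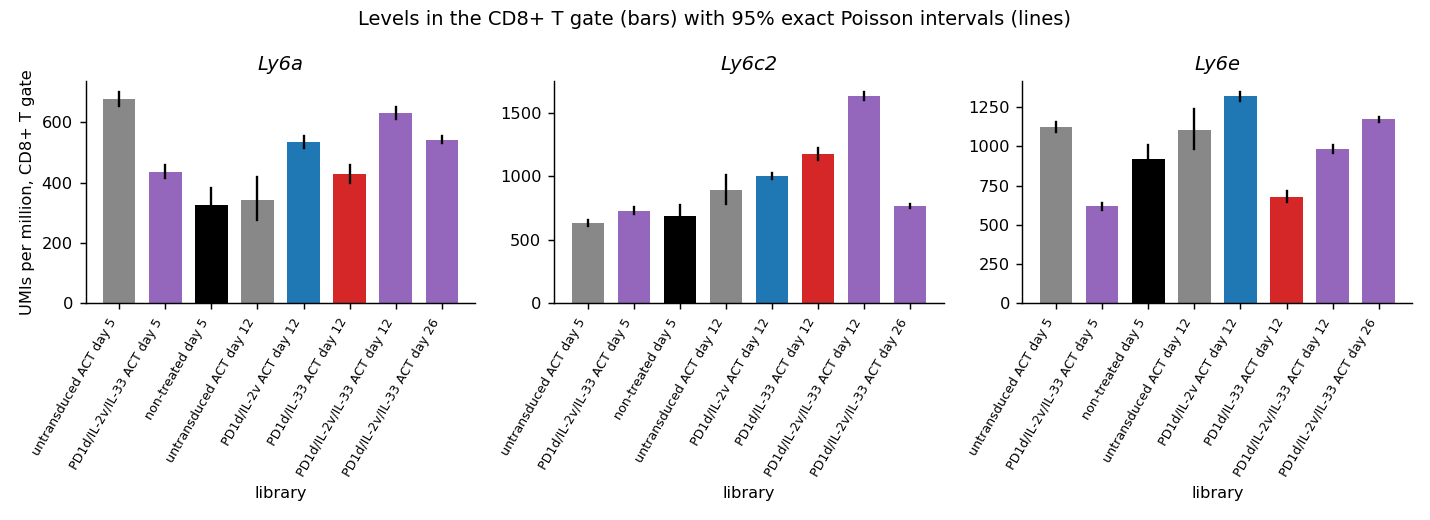
Ly6a, Ly6c2 and Ly6e in the CD8+ T gate (CPM of the gate, bars starting at 0) in the 8 libraries, with 95% exact Poisson intervals as lines and treatments by color. Ly6c2 is highest in day 12 PD1d/IL-2v/IL-33 ACT (1633 CPM), and Ly6e is lowest in day 5 PD1d/IL-2v/IL-33 ACT (616.9) and PD1d/IL-33 ACT (679.7).

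Between libraries, 10 CPM were added to each level before the log2 ratio was formed, and a gene of 50 or more UMIs in the pair was counted as changed past a 2-fold difference. The added 10 CPM shrink the ratios of genes with few UMIs. The shares of all genes past 2-fold include such genes, and none was counted among genes as abundant as Ly6c2. In PD1d/IL-2v/IL-33 ACT, Ly6c2 rose from day 5 to day 12 by 1.15 on the log2 scale (95% interval 1.10 to 1.21), as 1 of 4 members tested, where 0.618% of all genes were past 2-fold. It fell by 1.08 (interval −1.12 to −1.05) from day 12 to day 26, again as 1 of 4 members, with 3.22% of genes past 2-fold. The libraries of days 5, 12 and 26 differ in run identifier, so day cannot be told apart from it. Ly6a (0.52) and Ly6e (0.67) moved less from day 5 to day 12, and Ly6a (−0.21, or −0.06 without cycling cells) and Ly6e (0.25, or 0.45 without them) from day 12 to day 26. The drop of Ly6c2 to day 26 stayed under 2-fold without cycling cells (−0.96), with each cell weighted equally (−0.98), without the deepest 6% of cells (−0.95) and after thinning to 2000 UMIs (−0.995).

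At day 12, Ly6c2 was higher in PD1d/IL-2v/IL-33 ACT than in PD1d/IL-2v ACT by 0.70 (interval 0.65 to 0.75), than in PD1d/IL-33 ACT by 0.48 (0.41 to 0.54) and than in untransduced ACT by 0.86 (0.68 to 1.04). No member passed 2-fold in these 3 comparisons, where 2.08%, 1.8% and 7.71% of all genes did. Only the comparison with untransduced ACT is between libraries that share a run identifier. In the others, treatment cannot be told apart from it. Ly6a was higher by 0.24, 0.55 and 0.87 in the same order, the first of which was 0.09 with each cell weighted equally. With a stricter gate Ly6c2 passed 2-fold against untransduced ACT (1.27). Ly6e was lower than in PD1d/IL-2v ACT (−0.42), higher than in PD1d/IL-33 ACT (0.53) and not distinguished from untransduced ACT (−0.16, interval −0.33 to 0.00), though it was −0.41 without cycling cells and −0.43 after thinning. PD1d/IL-33 ACT had less Ly6e than PD1d/IL-2v ACT (−0.94, interval −1.03 to −0.86), with 3.19% of genes past 2-fold and 0 of 3 members among them. The untransduced library of day 12 holds 42 CD8+ T cells. Against day 5 untransduced ACT the difference of Ly6c2 in day 12 PD1d/IL-2v/IL-33 ACT was 1.36. These libraries differ in day as well as treatment, and the share of all genes past 2-fold is not given, so treatment cannot be told apart from day.

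On day 5 the mix of PD1d/IL-2v and PD1d/IL-33 cells had less Ly6e (−0.85, interval −0.92 to −0.79) and less Ly6a (−0.62, interval −0.71 to −0.54) than untransduced ACT, and a little more Ly6c2 (0.20), which was −0.03 without cycling cells and −0.02 with each cell weighted equally. Here 3.2% of all genes and 0 of 3 members were past 2-fold. The day 5 libraries all differ in run identifier, so treatment cannot be told apart from it. Untransduced ACT had more Ly6a than non-treated tumors, with 677.6 against 326.0 CPM (1.03, interval 0.80 to 1.27). This was the only one of 3 members past 2-fold, in a comparison where 2.2% of genes were. It stayed under 2-fold with a stricter gate of 2 UMIs (0.88) and without the deepest 6% of cells (0.98). With TMM scaling the median log2 ratio of all genes moved from −0.13 to −0.02 between days 12 and 5 of PD1d/IL-2v/IL-33 ACT, and from −0.21 to −0.03 between its day 12 library and day 5 untransduced ACT. The called differences were then 1.32 and −1.21 for Ly6c2 and 1.04 for Ly6a, and the genes past 2-fold between days 26 and 12 were 109 higher and 206 lower, in place of 155 and 160, and on day 5, in PD1d/IL-2v/IL-33 against untransduced ACT, 186 higher and 87 lower, in place of 151 and 126. The same splits at day 12 were 132 and 78, in place of 94 and 93, against PD1d/IL-2v ACT, 133 and 33, in place of 101 and 47, against PD1d/IL-33 ACT, 533 and 143, in place of 405 and 184, against untransduced ACT, and 44 and 16, in place of 30 and 24, against day 5.

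In the same treatment Ly6c2 of CD4+ T and myeloid cells was also highest in the day 12 library, and NK cells had another order. Over days 5, 12 and 26 of PD1d/IL-2v/IL-33 ACT it stood at 110.9, 199.1 and 86.67 CPM in CD4+ T cells and at 1232, 1395 and 587.5 in myeloid cells, but at 41.81, 69.35 and 325.3 in NK cells, where the library of day 26 was highest. That library holds 74 NK cells, and 18.92% of them carried Ly6c2 after thinning, against 6.182% at day 12. The summed level of Cd74, Ly86 and Cd22, listed as B cell genes, in the NK gate was 19.72, 9.907 and 483.5 CPM over the same days. Cd74 and Ly86 were also high in myeloid cells (11440 and 408.1 CPM, against 16960 and 322.7 CPM in B cells). The summed level of the T cell genes Thy1, Lck and Cd247 in the myeloid gate was 43.26, 132.9 and 15.21 CPM. Their part in the Ly6c2 values was not tested.

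**Figure D3:**
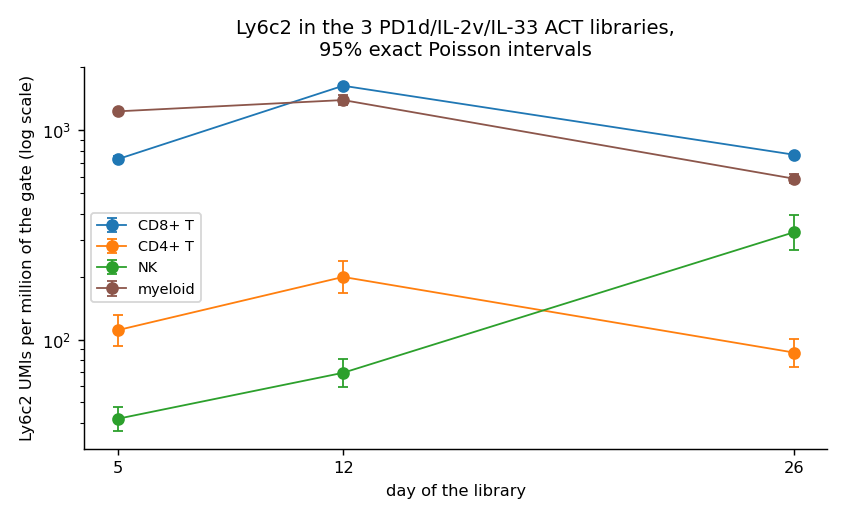
Ly6c2 (CPM of the gate, log scale) by day of the library in the 3 PD1d/IL-2v/IL-33 ACT libraries, with 1 line per cell gate and 95% exact Poisson intervals. CD8+ T, CD4+ T and myeloid cells are highest at day 12 and NK cells at day 26 (325.3). The 3 libraries also differ in run identifier.

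The rare members were low in the CD8+ T gate. Ly6c1 ranged from 0 CPM (day 12 untransduced ACT, where 3 counts would be 10.89 CPM and the exact Poisson interval reaches 13.39 CPM) to 8.949 CPM (day 12 PD1d/IL-2v/IL-33 ACT), and Ly6k from 0 CPM (non-treated tumors) to 7.261 CPM (2 UMIs in day 12 untransduced ACT). In thinned CD8+ T cells Ly6a was detected more often with Ly6c2 than without it in 8 of 8 libraries. The shares were 60.19% against 41.14% in day 12 PD1d/IL-2v/IL-33 ACT, 49% against 25.17% in PD1d/IL-33 ACT and 57.77% against 49.82% in day 5 untransduced ACT. In day 12 untransduced ACT they rest on 18 cells with Ly6c2 and 24 without. No other gene pair was set beside this one. In CD4+ T and myeloid cells the order varied between libraries.

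In CD4+ T, NK and myeloid cells of days 5 and 12, Ly6e was lower in the libraries whose transferred cells were engineered with IL-33. This grouping of the labels was chosen after the values had been seen. It sets the 3 libraries of days 5 and 12 with IL-33 (PD1d/IL-33 ACT, and the mix at both days) against the 4 without. In CD4+ T cells Ly6e ranged from 1233 to 1470 CPM with IL-33 and from 1604 to 2703 without, in NK cells from 558.4 to 674.8 and from 1085 to 1235, and in myeloid cells from 1464 to 1627 and from 1928 to 2710. In CD8+ T cells the ranges overlapped (616.9 to 984.2 and 917.6 to 1317). Genes lower in every IL-33 library made up 14.7% of those measured in CD4+ T cells, 17.5% in NK cells, 7.33% in myeloid cells and 13.0% in CD8+ T cells. Among genes with 1000 or more UMIs in the gate, a closer set for a gene as abundant as Ly6e, they were 159 of 647 in CD4+ T, 439 of 1789 in NK, 210 of 1614 in myeloid and 479 of 2877 in CD8+ T cells. The pattern was thus not rare, and no test was made of this grouping.

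**Figure D4:**
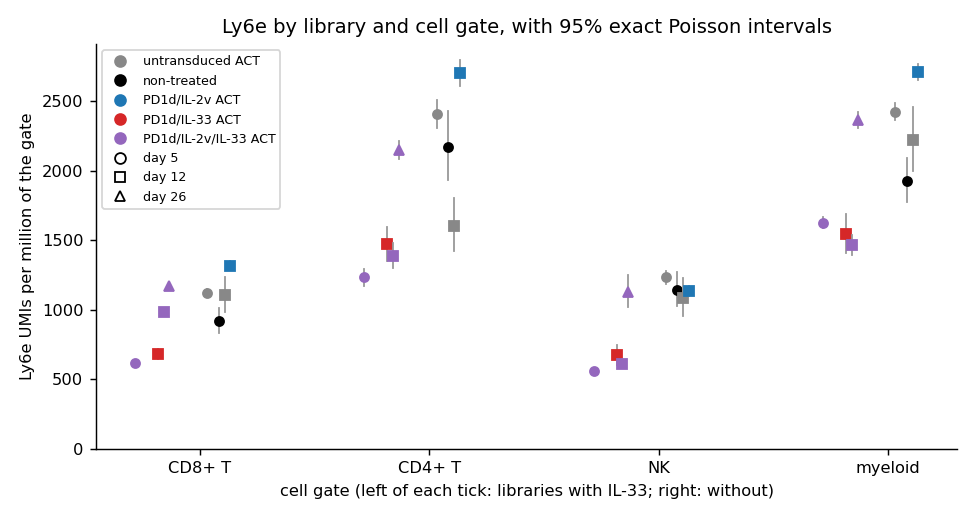
Ly6e (CPM of the gate, axis from 0) per library in 4 cell gates with 95% exact Poisson intervals, libraries with IL-33 drawn left of each tick and those without drawn right. In CD4+ T, NK and myeloid cells the 3 IL-33 libraries of days 5 and 12 lie below all 4 others, and the day 26 library (triangle) lies among the others.

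Of the 3 run identifiers that 2 libraries share, 2 pair a library with IL-33 of these days with one without. These identifiers were taken from the names of the authors' Cell Ranger outputs, and no label says that they mark a batch. PD1d/IL-33 and PD1d/IL-2v ACT share a run identifier, and Ly6e was lower in PD1d/IL-33 ACT by 0.94 (log2) in CD8+ T, 0.87 in CD4+ T, 0.74 in NK and 0.81 in myeloid cells. The day 12 libraries of the mix and of untransduced cells share another, with Ly6e lower in the mix by 0.16, 0.21, 0.82 and 0.60. The third pairs the day 26 library of the mix with non-treated tumors, and there Ly6e was 1171 against 917.6 CPM in CD8+ T, 2149 against 2173 in CD4+ T, 1131 against 1145 in NK and 2364 against 1928 in myeloid cells. The day 26 values were inside the range of libraries without IL-33 in each gate, so that with this library included 0 of 4 gates were free of overlap. Without the smallest libraries (day 12 untransduced ACT and non-treated tumors) 4 of 4 were. That leaves only 2 libraries without IL-33, so freedom from overlap is easier to reach, and the share of all genes was not counted. The library of non-treated tumors (917.6 CPM) was also the one that overlapped in CD8+ T cells. No conclusion is drawn from this.

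Other genes were set against the same grouping. Of the listed interferon-induced genes, 5 of 19 were lower in every IL-33 library in NK cells (Irf7, Isg15, Gbp2, Rtp4 and Zbp1), against 17.5% of all genes. In CD8+ T cells 3 of 20 were (among them Irf9 and Ifit3), against 13.0%. In myeloid cells 1 of 20 was (Ifit3, while Socs1 was higher), against 7.33%, and in CD4+ T cells 0 of 18, against 14.7%. The list did not stand clearly above all genes in any gate, and no test was made. Of the interferons and their receptors, 1 of 5 was lower in CD8+ T, 1 of 4 in NK and 2 of 6 in myeloid cells. Ifnar2, a chain of the type I interferon receptor, was among them in each. In CD4+ T cells 1 of 4 was lower and 1 higher. The summed level of Lyz2, Cst3, Tyrobp and Ctss in the myeloid gate was 8578 to 15010 CPM with IL-33 and 19210 to 23530 CPM without. Cd74, Ly86 and Cd22 were listed as B cell genes, but Cd74 and Ly86 were also high in myeloid cells. Their summed level in the CD8+ T gate was 17.74 to 35.17 CPM with IL-33 and 61.08 to 122.8 CPM without. Like gaps were present in CD4+ T (90.48 to 124.1 against 294.6 to 468.7) and NK cells (9.907 to 19.72 against 54.02 to 134.4). The part of these sets of genes in the Ly6e values was not tested. TMM scaling turned the balance of genes without overlap in CD8+ T cells from 779 higher and 1310 lower to 1179 and 1009, in CD4+ T cells from 630 and 1078 to 944 and 636, and in NK cells from 539 and 1616 to 1135 and 857, and Ly6e then overlapped in CD4+ T cells (1380 to 1502 with IL-33 against 1481 to 2645 without) and stayed apart in NK and myeloid cells. A stricter CD4+ T gate also gave overlap (1176 to 1449 against 1376 to 2531).

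The same kind of grouping by IL-2v, also made after the values were seen, set PD1d/IL-2v ACT and PD1d/IL-2v/IL-33 ACT of days 5 and 12 against the other 4 libraries. Ly6c2 in NK cells was 41.81 to 69.64 CPM with IL-2v and 148.6 to 175.6 CPM without, a pattern shared by 5.92% of genes. Ly6a in myeloid cells was 704.1 to 923.9 CPM with and 189.5 to 513.9 CPM without, shared by 3.21%. Among genes with 1000 or more UMIs in the gate, 101 of 1789 in NK and 66 of 1614 in myeloid cells had these patterns. Both cases were picked from all members and gates, and no test was made of this grouping. The PD1d/IL-2v and PD1d/IL-33 libraries of day 12 share a run identifier. Between them, NK cells had 69.64 against 155.0 CPM of Ly6c2 and myeloid cells 923.9 against 513.9 CPM of Ly6a. At day 26 NK cells had 325.3 CPM of Ly6c2, above all libraries without IL-2v, and myeloid cells 708.8 CPM of Ly6a. In the myeloid gate the summed level of the endothelial genes Pecam1, Cdh5 and Kdr was also higher with IL-2v (37.12 to 83.76 CPM against 3.325 to 30.96), while Cdh5 and Kdr stood at 0.07015 and 5.331 CPM over all myeloid cells. Its part in the Ly6a values was not tested. TMM scaling moved the genes without overlap from 213 higher and 547 lower to 506 and 236 in NK cells and from 280 and 208 to 358 and 174 in myeloid cells, and both members were unchanged in their call.

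Subsets of a gate were then compared within libraries, with splits made by genes other than the members and tested by edgeR with the library as a block. CD8+ T cells with 3 or more UMIs of Isg15, Ifit1 and Ifit3, genes induced by interferon, were 464 of 4904 cells. Ly6a was 852.5 to 1272 CPM in them and 396.3 to 599.4 CPM in the other cells of the same 6 libraries, with no overlap (log2 fold change 1.19 ± 0.07, adjusted p = 5.42e-13). Ly6c2 (0.74 ± 0.08, adjusted p = 1.51e-07) and Ly6e (0.55 ± 0.07, adjusted p = 4.85e-06) were higher as well, each in 6 of 6 libraries. All 3 members tested were therefore called, while 3.86% of all genes were (263 higher and 63 lower, or 216 and 20 by DESeq2). Of the other interferon-induced genes of the list, 16 of 17 rose (median 1.83, against −0.02 over all genes) and Ifitm3 did not pass. The split cells were slightly deeper, with a median of 6361 against 5932.5 UMIs.

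**Figure D5:**
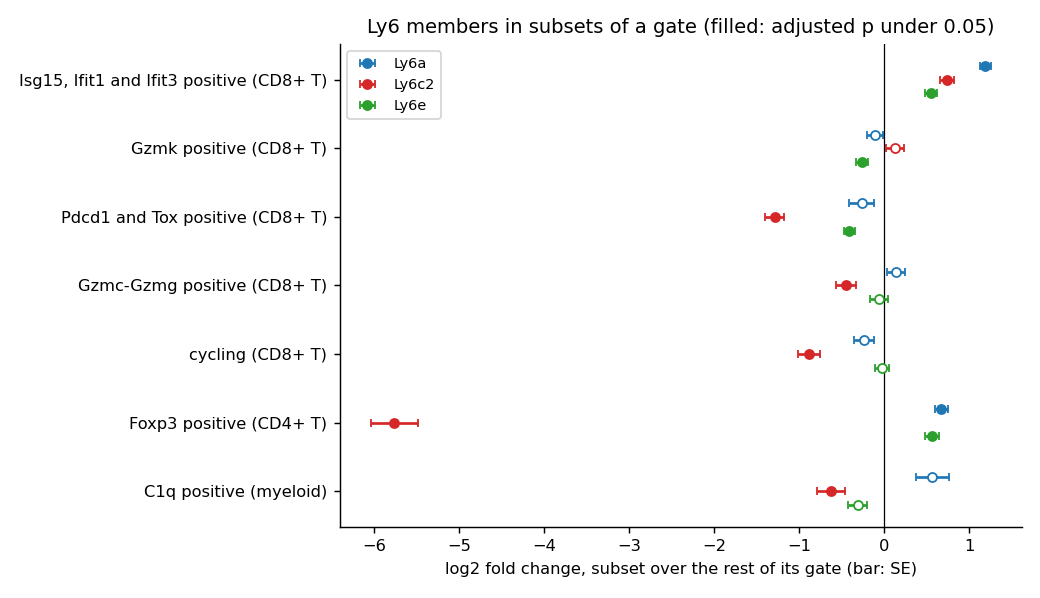
Log2 fold change of Ly6a, Ly6c2 and Ly6e between cells positive for the named genes (summed UMIs of each set, except Pdcd1 and Tox, of which both were required) and the rest of their gate, with bars for the SE and filled points where the edgeR adjusted p was under 0.05. All 3 members are higher in Isg15, Ifit1 and Ifit3 positive cells, and Ly6c2 is far lower in Foxp3 positive CD4+ T cells.

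Cells with UMIs of both Pdcd1 and Tox, which mark exhausted T cells, had less Ly6c2. It ranged from 294.7 to 789.4 CPM in these 1171 cells and from 798.5 to 1724 CPM in the rest, in 7 libraries without overlap (−1.29 ± 0.11, edgeR adjusted p = 1.38e-06), in a split where 17.3% of genes passed. Ly6e was lower too (−0.41 ± 0.07, adjusted p = 4.62e-04, lower in 7 of 7 libraries), and Ly6a did not pass (−0.26 ± 0.15, adjusted p = 0.241), though it did without PD1d/IL-2v ACT (−0.44, adjusted p = 0.0251). Of the interferon-induced genes 15 of 19 fell here (median −0.73, against −0.02 over all genes). The median depth of the Pdcd1 and Tox positive cells was 7794 UMIs against 5610 in the rest, and its part was not tested. Cycling cells (2 or more UMIs of Mki67, Top2a and Birc5, 616 cells) also had less Ly6c2 (−0.88 ± 0.13, adjusted p = 2.45e-05, lower in 6 of 6 libraries), in a split where 41.8% of genes passed and 18 of 19 interferon-induced genes fell (median −0.94, against −0.05). Their median depth was 13114 UMIs against 5599 in the rest. Ly6a did not pass in them (adjusted p = 0.108), but did without PD1d/IL-2v ACT (adjusted p = 0.0371), nor did Ly6e (adjusted p = 0.842).

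In CD8+ T cells with 2 or more UMIs of Gzmk, a granzyme gene (15.0% of genes called), Ly6e was lower (−0.26, adjusted p = 0.0150), in 5 of 7 libraries, a call that failed without PD1d/IL-2v ACT (adjusted p = 0.0643). Of the interferon-induced genes 8 of 19 were higher and 1 lower in these cells, whose median depth was 5394 against 6723 UMIs. In cells with 2 or more UMIs of Gzmc to Gzmg, the granzymes of highly activated killer cells (216 cells, 4 libraries, 8.17% of genes called), Ly6c2 was lower (−0.44, adjusted p = 0.0176). Over all genes 343 were higher and 415 lower, or 219 and 157 by DESeq2, which gave adjusted p = 0.0748 for Ly6c2, and the call failed without day 5 untransduced ACT (adjusted p = 0.0900), PD1d/IL-2v ACT (adjusted p = 0.103) or day 5 PD1d/IL-2v/IL-33 ACT (adjusted p = 0.108). Here 11 of 19 interferon-induced genes were lower and 1 (Ifitm3) was higher, and the median depth was 14063.5 against 5847 UMIs. The part of depth was not tested.

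Foxp3 positive CD4+ T cells, Foxp3 being the defining factor of regulatory T cells, were nearly free of Ly6c2. It gave 9 UMIs in 398 Foxp3 positive cells and 632 in 765 others, which is 3.053 against 169.4 CPM and 55.49-fold lower (exact 95% interval 29.05 to 121.9, edgeR adjusted p = 2.62e-11), and the highest library of the positive cells (3.971 CPM) was below the lowest of the rest (80.87 CPM). Ly6a was higher in the Foxp3 positive cells (1451 to 2880 CPM against 849.3 to 2009, 0.68 ± 0.08, adjusted p = 3.91e-06, higher in 8 of 8 libraries), as was Ly6e (0.57 ± 0.09, adjusted p = 6.44e-05, higher in 7 of 8). All 3 members tested were called, where 22.1% of genes were. The interferon-induced genes did not move one way, with 2 of 14 higher and 5 lower. With a stricter gate Ly6a no longer passed (0.42, adjusted p = 0.0642). Median depth was 5697 UMIs in the Foxp3 positive cells and 4124 in the others, and its part was not tested.

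Myeloid cells with 5 or more UMIs of C1qa, C1qb and C1qc, complement genes of macrophages, were 309 of 1563 cells. They had less Ly6c2, the gene of inflammatory monocytes, with 295.0 to 1104 CPM against 637.1 to 1590 in the rest, lower in 5 of 5 libraries (−0.62 ± 0.16, edgeR adjusted p = 0.0253), where 11.2% of genes passed. The call failed without day 5 untransduced ACT (adjusted p = 0.0705) or day 12 PD1d/IL-2v/IL-33 ACT (adjusted p = 0.0979) or the day 26 library (adjusted p = 0.124). Ly6a did not pass (0.57 ± 0.19, adjusted p = 0.0722) and passed without day 5 PD1d/IL-2v/IL-33 ACT (0.85, adjusted p = 0.00109), and Ly6e did not pass (−0.31 ± 0.11, adjusted p = 0.0934). Of the interferon-induced genes 4 of 20 fell (Ifitm3, Irf7, Irf1 and Ifit3). Median depth was 10681 UMIs in the C1q positive cells and 8220 in the rest, and its part was not tested.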

How the data were processed

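The deposited matrix holds raw UMI counts per gene and cell barcode of 8 libraries. The authors made it with Cell Ranger (version 2.2.0 in the submitters' processing notes, a later version in the study's methods) and bcl2fastq on GRCm38, and whether reads were subsampled when the libraries were joined is not given in the sources used here. The members and gene lists were chosen with earlier results of these data known, and the groupings by IL-33 and IL-2v and the wider pDC gate after the values were seen. Cells were kept if they held 2000 to 40000 UMIs from 500 to 6000 genes, if 103 ribosomal genes took 5 to 60% of these UMIs and if 13 mitochondrial genes took under 10%. No doublet caller was run. Gates required UMIs of Cd3d, Cd3e or Cd3g with Cd8a or Cd8b1 and no Cd4 (CD8+ T), of the same with Cd4 and no Cd8 (CD4+ T), of Ncr1 or Klrb1c without T cell genes (NK), 2 or more of a myeloid set that includes Csf1r, Cd68, Fcgr1, Adgre1 and Ms4a6c, or 2 or more of a B cell set that includes Cd79a and Ms4a1. Each gate allowed at most 1 UMI of each of the myeloid, pDC and B cell sets other than its own. The myeloid and B gates also required no UMI of Cd3d, Cd3e or Cd3g. Ncr1 and Klrb1c were not limited in the other gates.

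Levels are CPM of a gate, with exact Poisson 95% intervals. Libraries held 1387032 to 24917112 UMIs, and median depth in the CD8+ T gate was 5191 to 8178 UMIs. With 1 library per condition no test was made between conditions. Gates and subsets were tested on counts summed per library (10 or more cells) with edgeR 4.0.16 in R 4.3.3, with DESeq2 1.42.0 as an alternative. These p-values measure the spread between libraries that also differ in treatment and day. Cells were thinned to 2000 UMIs for shares. In simulated counts for CD4+ against CD8+ T cells (7450 genes), 84.78% of 92 genes changed 2-fold were called, and 0.1101% of 7264 unchanged genes. The simulated library effects were the same in both gates, and all genes had the same dispersion. These rates therefore check the code and do not give the error rates of the real tests, where differences between gates can vary by library. Named genes are the 6 members, other family genes with 50 or more UMIs, genes of the interferon lists and, for members with 1000 or more UMIs, the 3 genes of highest Pearson r of log2(CPM + 10). Python 3.11.15, numpy 2.4.6, scipy 1.17.1 and Biopython 1.88 were used. Some marker genes, list genes and a subset of CD8+ T cells are not reported here.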

Additional observations from a re-analysis of the deposited data

Results flagged for a closer look

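In several comparisons a member moved past 2-fold in opposite directions in different cell gates. Each rests on 1 library per condition, and the difference between gates was not tested. From day 12 to day 26 of PD1d/IL-2v/IL-33 ACT, the log2 ratio of Ly6c2 was −1.084 in CD8+ T, −1.113 in CD4+ T and −1.233 in myeloid cells but 2.079 in NK cells. In NK cells 10.5% of all genes were past 2-fold, and the summed level of Cd74, Ly86 and Cd22 went from 9.907 to 483.5 CPM. The part of these genes was not tested. Between day 12 PD1d/IL-2v/IL-33 ACT and day 5 untransduced ACT, the log2 ratio of Ly6c2 was 1.358 in CD8+ T and 2.065 in CD4+ T cells and −1.196 in NK cells. On day 5, PD1d/IL-2v/IL-33 against untransduced ACT gave 1.274 for Ly6c2 in CD4+ T cells and −1.811 in NK cells, and untransduced ACT against non-treated tumors gave −1.383 in CD4+ T and 2.008 in myeloid cells. The non-treated library holds 23 CD4+ T cells, with 17 UMIs of Ly6c2, and 32 myeloid cells. For these comparisons with day 5 untransduced ACT the share of all genes past 2-fold is not given. Nor is it given for CD4+ T and myeloid cells from day 12 to day 26. These values therefore do not set Ly6c2 apart from other genes. Ly6a at day 12, in PD1d/IL-2v/IL-33 against untransduced ACT, was −1.38 in NK and 1.84 in myeloid cells, with 9.57% and 15.1% of all genes past 2-fold and 50 NK and 20 myeloid cells in the untransduced library.

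Outside the gates and the wider pDC gate, 377 UMIs of Ly6d were counted in 29 of 2671 passing cells. Of these cells 22 carried a B cell marker (180 UMIs of Ly6d), 5 a pDC marker and no B cell marker (129 UMIs), and 2 neither (68 UMIs).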

How the results depend on the processing

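No paired analysis was possible because each condition and day has 1 library. Gates and subsets were compared within libraries, with the library as a block. No direction of a called result turned under any alternative tried. The 3 member calls past 2-fold between libraries became 5 with a pseudocount of 1 CPM, which added Ly6c1. The drop of Ly6c2 to day 26 stayed under 2-fold without cycling cells, with equal cell weights, without the deepest 6% of cells and after thinning. The call of Ly6a against non-treated tumors was lost with a stricter gate and without the deepest 6% of cells. The stricter gate added Ly6c2 against day 12 untransduced ACT. Calls between myeloid and CD8+ T cells (2 members) were 1 by DESeq2, 4 with no filter on low counts and 1 to 3 with 1 library left out. In C1q positive cells (1 member) they were 2 over all deposited barcodes, 3 with no filter and 0 to 2 with 1 library left out. In Foxp3 positive cells (3) a stricter gate left 1. In Gzmc to Gzmg positive cells (1) DESeq2, the stricter gate and sums of at least 30 cells each left 0, and leaving out 1 library gave 0 to 1, as it did in Gzmk positive cells (1), where the stricter gate also left 0. With no filter the calls rose to 4 in Pdcd1 and Tox positive cells and to 2 in cycling cells, where leaving out 1 library gave 1 to 2. The 3 gates with lower Ly6e in IL-33 libraries became 2 with TMM or stricter gates and 0 with day 26 included. The cause was not tested. Of the log2 ratios between libraries, 184 stayed within their counting interval and 77 moved beyond it. Of the fold changes between gates 339 stayed on their side of the threshold, 11 lost and 4 gained a call, and of those between subsets 264 stayed, 12 lost and 8 gained one. Depth limits Ly6c1, Ly6d in T cells and Ly6k, of which 405, 6 and 149 UMIs were counted.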

Other observations

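Of 34 genes listed from the wider Ly6 and uPAR family, 30 were in the matrix, 13 of them had no UMI in passing cells, and 6 reached 50 UMIs. Plaur, the urokinase receptor, stood at 383.9 to 967.6 CPM in myeloid cells over the 8 libraries. Ly6i, a close relative of Ly6a, varied more between libraries in that gate, from 30.57 CPM in day 12 untransduced ACT (5 UMIs) to 473.0 in day 5 untransduced ACT and 594.9 in PD1d/IL-2v ACT. It was called higher in myeloid than in CD8+ T cells and lower in C1q positive than in other myeloid cells. Ly6g5b was low in CD8+ T cells, at 2.407 to 11.16 CPM in 7 libraries and 23.55 CPM (150 UMIs) in day 12 PD1d/IL-2v/IL-33 ACT.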
